A study of Mus musculus with 6 samples.

Results

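The *ErbB* receptors and the ligands of the epidermal growth factor (EGF) family were examined in whole mouse lungs at E11.5dpc. The 10 members were *Egfr*, *Erbb2*, *Erbb3* and *Erbb4* among the receptors, and *Nrg1*, *Areg*, *Hbegf*, *Ereg*, *Tgfa* and *Egf* among the ligands. They were chosen by gene symbol, and all 10 were found among the 23420 genes listed in the deposited table. Bulk RNA-Seq had been performed on 3 pools of control lungs, labelled Raptorf/+; ShhCre/+, and on 3 pools of mutant lungs, labelled Raptorf/f; ShhCre/+. A pool combined 3 or 4 lungs of 1 genotype. The floxed *Rptor* allele encodes Raptor, a core subunit of mTORC1. Cre was expressed from the *Shh* locus, which is active in the lung epithelium, so that recombination was directed to the epithelium and not to the mesenchyme. Control lungs also carried *Shh* Cre/+ and 1 floxed *Rptor* allele, and in both groups 1 copy of *Shh* was replaced by the Cre allele. Embryos of both sexes were collected, and the labels give no sex for a pool.

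ErbB receptors are tyrosine kinases that form pairs at the cell surface when a ligand binds. They pass the signal to the RAS and MAP kinase cascade and to PI3K and AKT, and the latter branch lies upstream of mTORC1. EGFR binds EGF, TGFA, AREG, HBEGF and EREG. ERBB3 and ERBB4 bind neuregulins, while ERBB2 has no known soluble ligand and serves as a partner for the others. In the developing lung these receptors are best known from the epithelium, and the ligands are made as membrane proteins that are shed by ADAM proteases.

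No ErbB receptor or EGF family ligand changed past the adjusted threshold in mutant lungs. Of the 10 members, 8 had a normalized count (reads after scaling by the library's size factor) of at least 1 in at least 3 of the 6 pools and entered the test. In the limma comparison over all genes, 0 of these 8 had an adjusted p under 0.05, against 0.501% of the 17168 genes tested. An unadjusted p under 0.05 was reached by 1 member, *Erbb2*, against 13.6% of all genes tested. The same member was the only 1 of the 8 whose control and mutant values did not overlap, against 20.2% of all genes. The median log2 fold change was 0.06 over the 8 members and -0.0021 over all genes tested. On recovered whole reads of 5 pools, edgeR and DESeq2 also gave 0 members with an adjusted p under 0.05, against 3.68% and 2.13% of the genes each tested. An unadjusted p under 0.05 was reached by 3 members in edgeR, against 18.7% of genes, and by 2 in DESeq2, against 8.87% of genes.

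The libraries were alike in size, with normalized counts summing to between 20705058 and 20865998 per pool and with 20197642 to 21276090 recovered reads in 5 of them. The targeted gene, *Rptor*, had normalized counts of 2126, 2193 and 2279 in the control pools against 2023, 2137 and 2148 in the mutant pools, and these values overlapped (limma adjusted p = 0.584). Its count covers the whole gene in all cells of the lung. *Xist*, which is expressed from the inactive X chromosome of females, had normalized counts of 4599, 309 and 12989 in the control pools against 41.9, 466 and 161 in the mutant pools. Control pools 1 and 3 were above every mutant pool, and control pool 2 lay within the mutant range. The log2 fold change was -4.16, the lowest value over all genes tested (limma unadjusted p = 0.00559, adjusted p = 0.164). *Xist* level thus ran largely with genotype, and the 2 cannot be fully told apart in these pools. The part of *Xist* or of sex in the values of the members was not tested beyond a fit with log2 *Xist* as a covariate. Nothing in the labels says which embryos or litters went into a pool, and p-values measure the spread between these pools.

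The members differed widely in level. Per kb of exon (GENCODE M21, GRCm38), *Erbb2* had the highest level, with 451.5 to 513 normalized counts per kb over the 6 pools. *Erbb3* followed with 129 to 139 per kb and *Egfr* with 73.7 to 84.6 per kb. *Hbegf* was the most abundant of the 6 ligands, at 35.4 to 46.9 per kb, ahead of *Tgfa* at 13.8 to 26.1 per kb. *Egf* (4.26 to 8.09 per kb) and *Nrg1* (4.93 to 6.81 per kb) overlapped and could not be ordered. *Erbb4* lay at 1.35 to 2.94 per kb, under both of them. *Ereg* and *Areg* were at the bottom, with overlapping ranges that reached 0. All other neighbours in this order were separated in every pool. Exon lengths count every annotated isoform, so that a gene with long rarely used exons is placed too low.

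**Figure D1:**
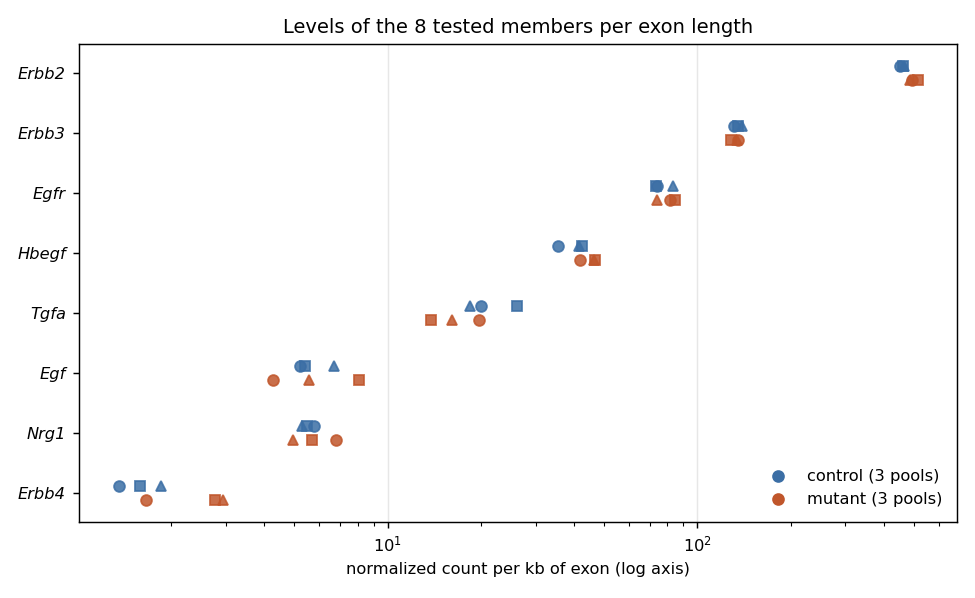
Normalized count per kb of exon (log axis) of the 8 tested members, with 1 point per pool, control pools in blue and mutant pools in orange, and the same marker shapes for replicate numbers 1, 2 and 3. Points of *Egf* and *Nrg1* overlap, the other genes are apart, and *Erbb2* stands above every other member in each pool.

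*Erbb2* was the most abundant receptor and the member whose groups were apart. It lies on chromosome 11 of GRCm38 from 98412470 to 98437716. Normalized counts of *Erbb2* were 2352, 2409 and 2412 in the control pools against 2571, 2674 and 2522 in the mutant pools. Every mutant pool was above every control pool, with means of 2391 ± 33.7 (SD, n = 3 pools) and 2589 ± 77.7 (SD, n = 3). The difference was small, at 1.08-fold (95% interval 1.01 to 1.15), a log2 fold change of 0.11 with a standard error of 0.04. It did not pass the adjusted threshold (limma adjusted p = 0.258, unadjusted p = 0.0207). In 16 alternative fits the log2 fold change stayed between 0.09 and 0.13, and the adjusted p between 0.126 and 0.530. The unadjusted p was under 0.05 in 12 of the 16. It was 0.0674 without control pool 1, 0.0887 without mutant pool 2, 0.0688 with log2 *Xist* as a covariate and 0.0511 by limma without the trend of variance with level.

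*Erbb3*, whose product binds neuregulins and has little kinase activity of its own, lies on chromosome 10 from 128567523 to 128589652. Its normalized counts were 788, 815 and 835 in the control pools against 812, 774 and 805 in the mutant pools. The groups overlapped, and the spread within each group (SD of 23.7 and 20.5) was no wider than the 28.5 and 28.2 that counting error alone gives at this level. The fold change was 0.981, with a 95% interval from 0.902 to 1.07 (limma adjusted p = 0.867). *Erbb3* is also expressed by neural crest cells and glia. Their marker *Sox10* had counts of 545 to 772 over the 6 pools with overlapping groups. The 9 markers of neural crest and glia summed to between 4130 and 5364 in control pools and between 4917 and 5479 in mutant pools, and their part in the *Erbb3* count was not tested.

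*Egfr*, the receptor for most of the ligands examined, lies on chromosome 11 from 16752203 to 16918158. In control pools it had normalized counts of 836, 835 and 947, and in mutant pools 924, 958 and 841. Both groups covered nearly the same range, and the fold change was 1.04 with a 95% interval from 0.932 to 1.16 (limma adjusted p = 0.770). For *Egfr* the spread between pools was wider than counting error, with an SD of 7.41% of the mean in control pools where counting gives 3.38%.

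*Erbb4*, an active kinase that binds neuregulins, was the least abundant receptor. It is a long gene on chromosome 1 from 68032186 to 69108059. Normalized counts were 16.7, 19.6 and 22.9 in the control pools against 20.4, 34.3 and 36.3 in the mutant pools. Mutant pools 2 and 3 were above all control pools, whereas mutant pool 1 lay within the control range. The log2 fold change of 0.57 had a wide 95% interval, from -0.06 to 1.19, and did not pass the threshold (limma adjusted p = 0.409). Over 16 alternative fits the unadjusted p was under 0.05 in 2, edgeR (0.0437) and limma without mutant pool 1 (0.0137). The log2 fold change stayed between 0.42 and 0.88 in them. Counting error alone gives an SD of 22.5% of the mean in control pools and 18.1% in mutant pools at counts this low, beside measured SDs of 15.6% and 28.5%. *Erbb4* is also expressed in heart muscle. The 8 heart muscle markers summed to between 1334 and 1456 in control pools and between 1105 and 1196 in mutant pools, and their part in the *Erbb4* count was not tested.

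As shares of the summed receptor level per kb, *Erbb2* made up 68.2% ± 0.756 of the control level (SD, n = 3 pools) and 69.8% ± 0.538 of the mutant level (SD, n = 3). *Erbb3* made up 20.1% ± 0.151 and 18.6% ± 0.863. For both genes control and mutant shares were apart (exact permutation test, two-sided, p = 0.1, which is the lowest value that 3 pools against 3 can give). The share of *Egfr* was 11.4% ± 0.640 in control and 11.2% ± 0.492 in mutant lungs (exact permutation test, p = 0.7), and that of *Erbb4* 0.237% ± 0.0318 and 0.345% ± 0.10 (exact permutation test, p = 0.3). These shares sum to a fixed total and are not independent of each other. On normalized counts only *Erbb2* of the receptors was apart between groups, as were 20.2% of all genes tested, and *Erbb3* overlapped. The shares also depend on the exon lengths taken.

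**Figure D2:**
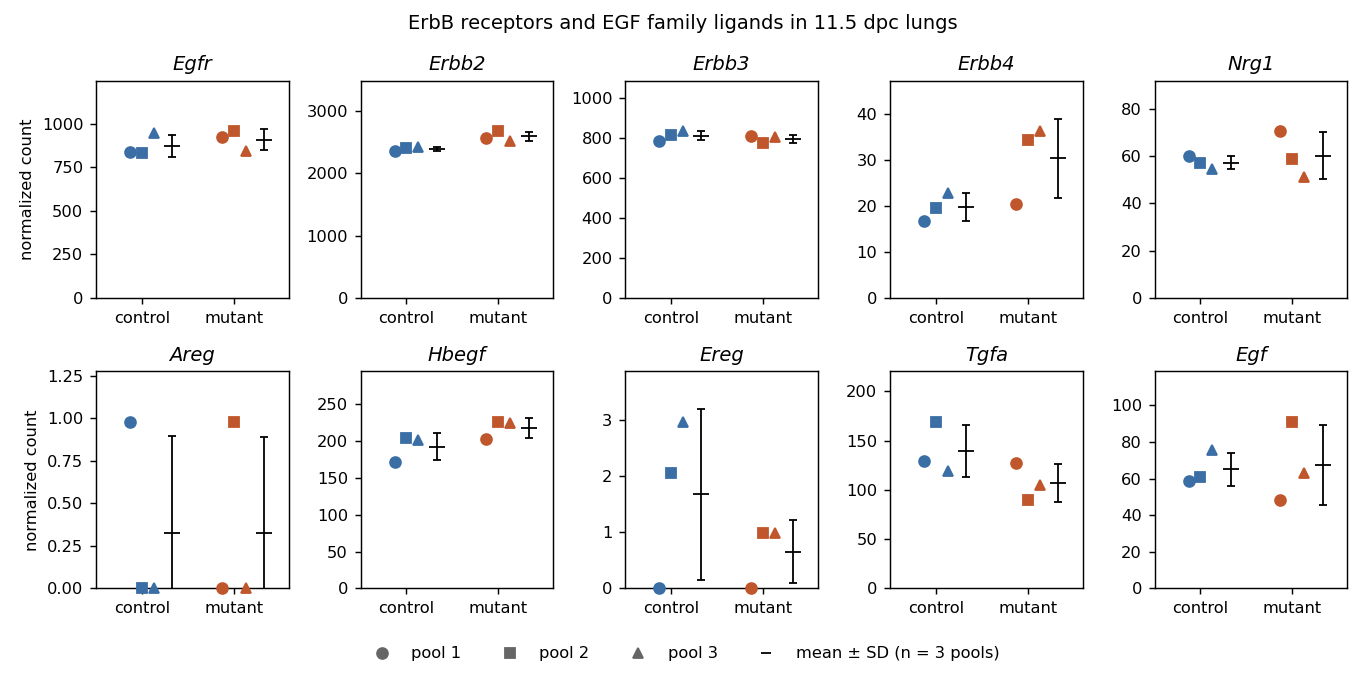
Normalized count of each of the 10 members in each pool, with control pools in blue and mutant pools in orange, marker shapes for replicate numbers, and the mean ± SD (n = 3 pools) in black beside each group. Each vertical axis starts at 0 and has its own scale. *Erbb2* is the panel in which the groups are apart, by little against its level, and *Areg* and *Ereg* hold between 0 and 2.98 normalized counts.

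*Hbegf* encodes heparin-binding EGF-like growth factor and lies on chromosome 18 from 36504927 to 36515805. Its normalized counts were 171, 205 and 201 in the control pools against 202, 226 and 225 in the mutant pools. The lowest mutant pool lay between control values, so that the groups overlapped. The fold change was 1.14, with a 95% interval from 0.962 to 1.34 (limma adjusted p = 0.488).

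*Tgfa*, which encodes a ligand of EGFR, had the largest negative difference of the 8 tested members. It lies on chromosome 6 from 86195223 to 86275719. Control pools had normalized counts of 130, 169 and 119, and mutant pools 128, 89.2 and 105. Mutant pool 1 lay within the control range and the other mutant pools lay below it. The log2 fold change was -0.37, with a 95% interval from -0.76 to 0.01 (limma adjusted p = 0.384). Single pools moved this value, to -0.23 without control pool 2 and to -0.51 without mutant pool 1. With log2 *Xist* as a covariate it was -0.83 (limma adjusted p = 0.111, unadjusted p = 0.000863). In that fit *Tgfa* was the 1 member with an unadjusted p under 0.05. Over the 16 alternative fits the unadjusted p of *Tgfa* was under 0.05 in 5, among them edgeR (0.0157) and DESeq2 (0.0363). The adjusted p stayed between 0.111 and 0.662.

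*Nrg1*, a neuregulin that binds ERBB3 and ERBB4, lies on chromosome 8 from 31814551 to 32884029. It had normalized counts of 59.9, 56.8 and 54.7 in the control pools against 70.5, 58.8 and 51.0 in the mutant pools. The mutant values spanned the control values, and the fold change was 1.04 with a 95% interval from 0.795 to 1.37 (limma adjusted p = 0.911). *Egf*, on chromosome 3 from 129677565 to 129755316, had counts of 58.9, 61.0 and 75.5 in the control pools against 48.0, 91.2 and 62.8 in the mutant pools. Its mutant pools varied more than counting error gives, with an SD of 32.6% of the mean against 12.2%, and the log2 fold change was 0.00705 with a 95% interval from -0.51 to 0.52 (limma adjusted p = 0.994). The exons of *Egf* share 500 bases with those of *6330410L21Rik* on the opposite strand, and the sources used here do not say whether reads were counted by strand.

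*Areg*, which encodes amphiregulin, and *Ereg*, which encodes epiregulin, were at the limit of detection. Both lie on chromosome 5, *Ereg* from 91074622 to 91093646 and *Areg* from 91139599 to 91148432. *Areg* had a normalized count of 0.982 in control pool 1 and 0.980 in mutant pool 2, and 0 in the other 4 pools. *Ereg* had 0, 2.07 and 2.98 in the control pools against 0, 0.980 and 0.982 in the mutant pools. A count of 0 allows up to 3 reads in a library, so that no difference of either gene was detectable at this depth. Neither gene passed the filter on low values.

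**Figure D3:**
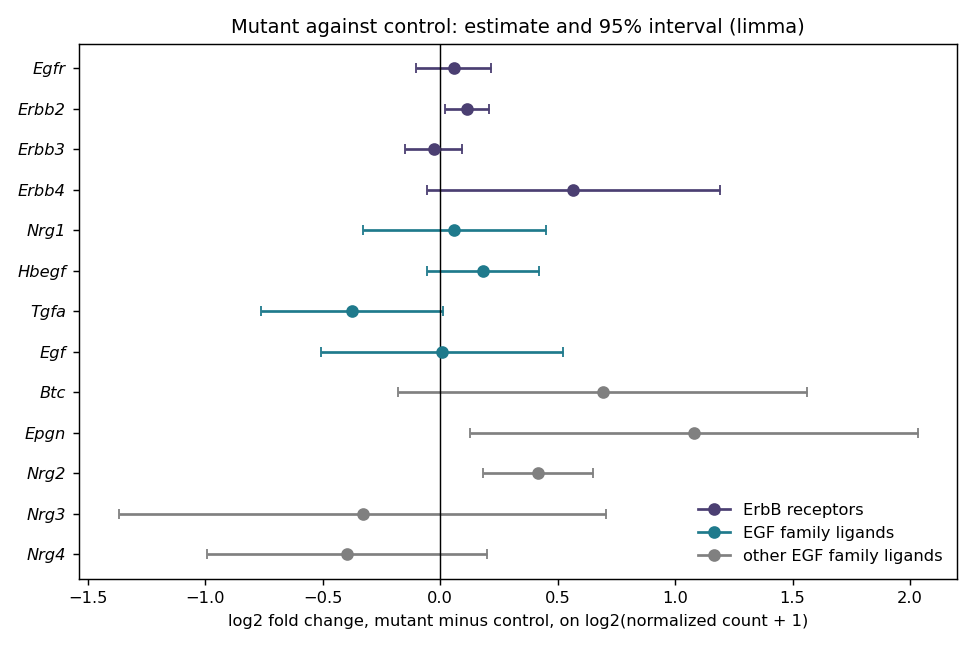
Log2 fold change (mutant minus control, on log2 of the normalized count plus 1) with its 95% interval from limma, for the 4 receptors, the 4 tested ligands among the members and the 5 other ligands of the family. Intervals of *Erbb2*, *Nrg2* and *Epgn* leave out 0 before adjustment over all genes, and none of the 13 genes passed the adjusted threshold.

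The EGF family has 5 further ligands, which were listed as *Nrg2*, *Nrg3*, *Nrg4*, *Btc* and *Epgn*. The most abundant of them per kb was *Nrg2*, a neuregulin, at 84.2 to 142 normalized counts per kb. *Nrg2* was thus above *Hbegf* and the other ligands examined in every pool. Its normalized counts were 307, 335 and 264 in the control pools against 379, 447 and 383 in the mutant pools. Every mutant pool was above every control pool, at 1.33-fold (95% interval 1.13 to 1.57), but the adjusted threshold was not passed (limma adjusted p = 0.130, unadjusted p = 0.00263). In 16 alternative fits the log2 fold change of *Nrg2* stayed between 0.32 and 0.49, and the adjusted p between 0.0664 and 0.495. *Epgn*, which encodes epigen, had counts of 3.93, 2.07 and 1.99 in the control pools against 7.15, 4.90 and 7.85 in the mutant pools (limma adjusted p = 0.305), and such values rest on a few reads per pool. *Nrg4* had 24.6, 17.6 and 22.9 in the control pools against 13.3, 16.7 and 18.6 in the mutant pools (limma adjusted p = 0.557). *Btc*, which encodes betacellulin, and *Nrg3* stayed under 11.3 normalized counts in every pool, with limma adjusted p-values of 0.472 and 0.805.

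Enzymes and cofactors of ligand shedding showed no call. Of 9 such genes, 6 were higher and 3 lower in mutant lungs, where 8495 of all genes tested were higher and 8673 lower. None had an unadjusted p under 0.05, against 13.6% of all genes, and log2 fold changes lay between -0.07 and 0.19. Of 11 genes that restrain or turn over the receptors, 2 were higher and 9 lower, again with 0 at an unadjusted p under 0.05 and with log2 fold changes from -0.28 to 0.09. Neither list held a gene with an adjusted p under 0.05, against 0.501% of all genes tested. The splits in direction were not tested.

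Among 5 partners of the receptors, *Muc4* fell past the adjusted threshold. *Muc4* encodes a membrane mucin that associates with ERBB2. It had normalized counts of 30.4, 37.2 and 36.8 in the control pools against 11.2, 12.7 and 11.8 in the mutant pools. These counts are low, near those of *Erbb4*. All mutant pools were below all control pools, at 0.362 of the control level (95% interval 0.250 to 0.523, limma adjusted p = 0.0385). In each fit that left out 1 pool the log2 fold change was between -1.56 and -1.42. The call was kept without control pool 3 (adjusted p = 0.0263) and lost without control pool 1 (0.231), control pool 2 (0.0562), mutant pool 1 (0.130), mutant pool 2 (0.126) or mutant pool 3 (0.207). It was also lost with log2 *Xist* as a covariate, where *Muc4* was at -1.46 on the log2 scale (limma adjusted p = 0.184). *Muc1*, which encodes another membrane mucin, had 91.3, 129 and 112 in the control pools against 86.8, 63.7 and 74.6 in the mutant pools (limma adjusted p = 0.200). *Grb7* encodes an adaptor that binds ERBB2. Its counts were 777, 810 and 618 in the control pools against 628, 524 and 580 in the mutant pools, and the log2 difference was -0.34 (limma adjusted p = 0.192). Without control pool 3, *Grb7* was at -0.46 and passed the threshold (limma adjusted p = 0.00773), as it did in edgeR (0.00607) and DESeq2 (0.000828), which also leave out that pool. With log2 *Xist* as a covariate *Grb7* was at -0.61 (limma adjusted p = 0.0441).

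*Muc4* and *Muc1* are products of epithelial cells, and epithelial markers were read beside them. Of 20 epithelial markers, 18 were lower in mutant lungs, 16 of them at an unadjusted p under 0.05, against 6.89% of all genes tested. An adjusted p under 0.05 was reached by 6 of the 20, against 0.501% of all genes, and the median log2 fold change was -0.44. *Muc4*, at a log2 fold change of -1.47, fell further than each of the 20, of which *Cdh1* was lowest at -0.97. *Muc1*, at -0.55, lay within their range. The 20 markers summed to between 18767 and 22210 normalized counts in control pools and between 14869 and 16201 in mutant pools. The 2 that were higher were *Krt19* (log2 fold change 0.44) and *Sox9* (0.12), and *Shh* was nearly unchanged at -0.03. *Epcam* and *Shh*, which mark the epithelium, were present in every pool, and none of the 20 was at 0. All 12 mesenchymal markers were higher in mutant lungs, 7 of them at an unadjusted p under 0.05, against 6.67% of all genes tested. An adjusted p under 0.05 was reached by 4, against 0.501% of all genes. Their sums were 91601 to 97978 in control pools and 112239 to 120490 in mutant pools. In whole lungs, fewer cells of a type and less RNA per cell cannot be told apart. The part of these shifts in the receptor and mucin values was not tested.

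Relative to the mean of the 20 epithelial markers, the receptors lay higher in mutant than in control lungs, as did most genes tested. Within each pool, the mean log2 level of the 20 markers was subtracted from the log2 level of the receptor. The markers moved unequally, with log2 fold changes from -0.97 for *Cdh1* to 0.44 for *Krt19* and -0.03 for *Shh*. The differences below therefore depend on the markers taken. As the markers were lower in mutant lungs on average, subtracting them raised the log2 fold change of every gene by the same amount. A higher value on this scale is thus no separate test of a receptor. For *Erbb2* this gave 1.73, 1.66 and 1.87 in the control pools against 2.19, 2.38 and 2.17 in the mutant pools, a difference of 0.49. For *Erbb3* the values were 0.15, 0.10 and 0.34 in the control pools against 0.53, 0.59 and 0.52 in the mutant pools, a difference of 0.35. The difference was 0.44 for *Egfr* and 0.94 for *Erbb4*. All 4 receptors were higher in each mutant pool than in every control pool (exact permutation test, two-sided, p = 0.1 for each, the smallest possible), which was also the case for 64.3% of all genes tested. The median of all genes on this scale was 0.38, so that *Erbb3* lay slightly under and *Erbb2* and *Egfr* slightly over the typical gene. *Erbb4*, at 0.94 and with low counts, lay further over it.

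Downstream of the receptors, 15 of 32 adaptors and kinases were higher and 17 lower in mutant lungs, and 0 had an adjusted p under 0.05 by limma. An unadjusted p under 0.05 was reached by 3 that were higher and 1 that was lower, against 6.67% and 6.89% of all genes tested. In either direction this was 12.5% of the list, near the 13.6% of all genes. *Shc1*, an adaptor that binds the phosphorylated receptors, had normalized counts of 3587, 3415 and 3668 in the control pools against 3770, 4017 and 3971 in the mutant pools, which gave a log2 difference of 0.14 and did not pass (limma adjusted p = 0.199). On recovered reads of 5 pools *Shc1* passed the threshold, at 0.16 in edgeR (adjusted p = 0.0456) and in DESeq2 (adjusted p = 0.0489). *Sos2*, an exchange factor for RAS, and the transcription factor *Stat3* both had a log2 fold change of 0.13, and the phosphatase gene *Ptpn11* had one of -0.10 (limma adjusted p = 0.335, 0.320 and 0.258).

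Among 19 genes that respond to MAP kinase signaling, 6 were higher and 13 lower in mutant lungs, beside 8495 higher and 8673 lower over all genes tested. This split was not tested. An unadjusted p under 0.05 (limma) was reached by 1 that was higher and 2 that were lower. Together these were 15.8% of the list, near the 13.6% of all genes. *Ccnd1*, which encodes cyclin D1, fell past the adjusted threshold. It had normalized counts of 7691, 8202 and 7662 in the control pools against 6805, 6370 and 6571 in the mutant pools. The groups did not overlap, and the fold change was 0.838 with a 95% interval from 0.785 to 0.896 (limma adjusted p = 0.0398). The log2 fold change was between -0.28 and -0.22 in the fits that left out 1 pool. Its call was kept without control pool 2 (adjusted p = 0.0493) or 3 (0.00436) and lost without control pool 1 (0.245), mutant pool 1 (0.126), mutant pool 2 (0.180) or mutant pool 3 (0.252). It was also lost by limma without the trend of variance with level (adjusted p = 0.243). *Phlda1* had a log2 fold change of 0.35 and no overlap between groups (limma adjusted p = 0.138). On recovered reads of 5 pools *Phlda1* was at 0.25 and passed in edgeR (adjusted p = 0.0426) and DESeq2 (adjusted p = 0.0183), and with log2 *Xist* as a covariate it was at 0.26 (limma unadjusted p = 0.0728). *Etv5*, a transcription factor gene that also responds to FGF signaling, had one of -0.20 with overlapping groups (limma adjusted p = 0.366). Without control pool 3, *Etv5* was at -0.31 and passed the threshold (limma adjusted p = 0.0113), as it did in edgeR (0.00879) and DESeq2 (2.59e-05), which also leave out that pool. Without control pool 2 it was at -0.084 (limma unadjusted p = 0.184), and with log2 *Xist* as a covariate at -0.43 (limma adjusted p = 0.0951).

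**Figure D4:**
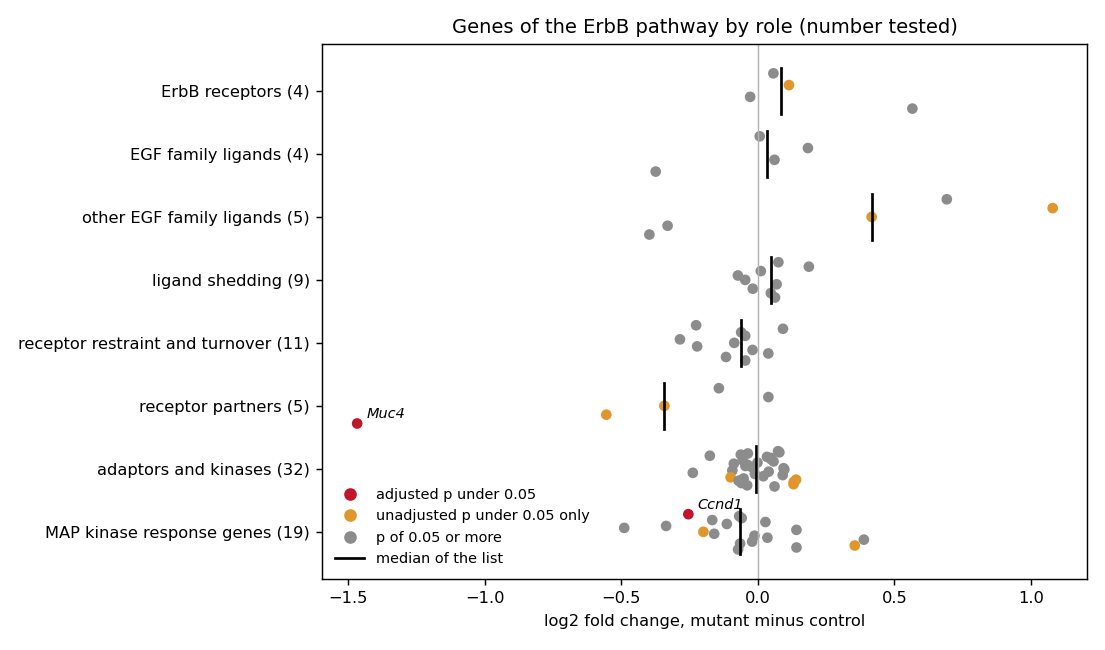
Log2 fold change (mutant minus control) of each tested gene of the ErbB pathway, grouped by role, with the number tested in brackets and the median of each list as a black bar. Red points passed an adjusted p of 0.05, orange points only an unadjusted p of 0.05. The adaptors and kinases gather near 0, and *Muc4* and *Ccnd1* are the red points.

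Over the 81 pathway genes outside the 10 members, 6 that were higher and 6 that were lower had an unadjusted p under 0.05, and 2 had an adjusted p under 0.05. The 12 with an unadjusted p under 0.05 were 14.8% of the 81, near the 13.6% of all genes tested. The 2 with an adjusted p under 0.05 compare with 0.501% of all genes. The median log2 fold change of these 81 genes was -0.04, beside -0.0021 over all genes tested.

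Genes with a profile over the 6 pools most like that of *Erbb2* were sought among 12500 genes with a mean of at least 50 normalized counts. By root mean square distance of the centred log2 values, the nearest were *Asnsd1* (0.0117), *Reck* (0.0124) and *Ciz1* (0.0149). *Erbb2* was taken for its unadjusted p under 0.05 (limma). Some of so many genes lie close on 6 values in any case, and a link of these genes to *Erbb2* was not tested.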

How the data were processed

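The authors deposited 1 table for all 6 libraries, sequenced on the BGISEQ-500 platform. The deposited signal values are normalized counts: the authors scaled each library's gene reads by its size factor. The processing notes of the submitters list Trim Galore, HISAT2, featureCounts, DESeq2 and the mm10 build (GRCm38), without versions or roles. Filters and strand settings are not given in the sources used here. The table also holds the authors' mean over the libraries and their own fold changes, test statistics and p-values, which were not used. Values were whole multiples of 1 step per library (100% of values within 0.01 of a whole read in 5 libraries). Control pool 3, whose step of 0.994 lay too close to 1 for the rule applied, was left out of the tests on reads.

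Log2(normalized count + 1) was compared between mutant and control pools with limma 3.58.1 in R 4.3.3 (eBayes with a trend), for genes with at least 1 normalized count in at least 3 libraries. Benjamini-Hochberg adjustment was applied with a threshold of 0.05. On this scale the fold changes of low genes come out too small. Alternatives were edgeR 4.0.16 and DESeq2 1.42.0 on recovered reads of 5 libraries, TMM factors, scaling to the 75th percentile, a pseudocount of 0.1, other filters, limma without the trend, a replicate block, log2 *Xist* as a covariate and leaving out each pool. Single ratios and shares were tested by exact permutation, two-sided. The main limma fit on 6 libraries and the edgeR and DESeq2 fits on 5 libraries were tested on simulated data, and the other alternatives were not. Of 81 other pathway genes, *Erbin* and *Hras* were found by older symbols (RefSeq, GRCm38.p6), as was the macrophage marker *Adgre1*. Named pathway genes are the other ligands and those with an unadjusted p under 0.05. The members, lists and tests were chosen with earlier results of these data known.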

Additional observations from a re-analysis of the deposited data

How the results depend on the processing

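No member passed the adjusted threshold in any of the 16 alternatives, in which DESeq2 gave *Erbb4* no adjusted p. The number of members with an unadjusted p under 0.05, 1 in the main comparison, was 0 by limma without the trend, 3 by edgeR, 2 by DESeq2, and 0 to 3 when 1 pool was left out. Over all genes, 86 passed the adjusted threshold in the main comparison, and the number was 8 by limma without the trend, 545 by edgeR, 404 by DESeq2, and 1 to 468 when 1 pool was left out, with the highest count without control pool 3 and 1 gene without control pool 1 or mutant pool 3. The counts by edgeR and DESeq2 leave out control pool 3. Pathway genes outside the members with an unadjusted p under 0.05 numbered 12 in the main comparison. Their number was 8 with log2 *Xist* as a covariate, 8 to 18 when 1 pool was left out, and 19 by edgeR, where 18.7% of all genes had such a p. The cause of these shifts was not tested. Signs turned for genes with differences near 0. The log2 fold change of *Nrg1* was -0.046 with log2 *Xist* as a covariate, and leaving out 1 pool gave -0.058 to 0.17, negative without mutant pool 1. That of *Egf* was -0.23 to 0.22 when 1 pool was left out, negative without control pool 1, control pool 2 or mutant pool 2.

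The replicate numbers of control and mutant pools were not paired by the labels, and deviations of same-numbered pools correlated at -0.00397, 0.195 and 0.0449 over 14584 genes. Not every pool correlated best with its own number. With a replicate block 71 genes and 0 members passed the adjusted threshold, and *Muc4* (adjusted p = 0.0544) and *Ccnd1* (0.0569) did not. Depth limits *Erbb4*, *Areg*, *Ereg*, *Epgn*, *Btc*, *Nrg3*, *Nrg4* and *Muc4*, whose counts are low.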

Other observations

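Other cell type markers than those of the epithelium and mesenchyme were read beside the receptors and ligands. Over all genes tested, 6.67% were higher and 6.89% lower at an unadjusted p under 0.05 (limma), and 0.501% had an adjusted p under 0.05. Of 6 smooth muscle markers, 4 that were higher in mutant lungs had an unadjusted p under 0.05 (limma) and 0 an adjusted p under 0.05, and their summed normalized counts were 7291 to 9070 in control pools and 9655 to 10658 in mutant pools. Of 8 endothelial markers, 6 that were higher had an unadjusted p under 0.05 and 0 an adjusted p under 0.05, with sums of 12329 to 14120 and 14342 to 14978. Of 5 mesothelial markers, 2 that were higher had an unadjusted p under 0.05 and 1 an adjusted p under 0.05, with sums of 3660 to 4253 and 4335 to 4786. Macrophage markers summed to 1345 to 1793 in control pools and 1694 to 1835 in mutant pools, and 0 of 7 had an unadjusted p under 0.05. The 8 neuronal markers summed to 1238 to 1285 and 1133 to 1379. Of these, 1 was higher at an unadjusted p under 0.05, which is 12.5% and near the 13.6% of all genes in either direction. None had an adjusted p under 0.05. Erythroid markers summed to 96204 to 124211 and 95449 to 118796, with 0 of 6 tested at an unadjusted p under 0.05. The part of these cell types in the receptor and ligand values was not tested.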
